A study of Mus musculus with 30 samples.

Results

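The heat shock protein 70 (HSP70) family and heat shock factor 1 were examined in the gastrocnemius muscle of mice that had lived for 64 weeks on either a fixed or a repeatedly advanced light schedule. The set held 10 genes of the 56951 gene symbols in the tables: Hspa1a, Hspa1b, Hspa1l, Hspa2, Hspa4, Hspa4l, Hspa8, Hspa9, Hsph1 and Hsf1. It was taken up by gene symbol and chosen by the large difference of Hspa1a and Hspa1b between the schedules that these same libraries had already shown, so each member's difference between schedules is a description here. No p-value of a single member's difference is given, and counts of members past a threshold are given beside the share of all genes without being read as support. All 10 members had 1 row each, were detected in every library and passed the filter for testing (a mean over 20 reads and a mean over 0.5 FPKM, fragments per kilobase of exon, scaled to a fixed number of mapped reads), as did 12030 genes in all.

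The mice were wild-type males of the C57BL/6J background, housed 1 per cage with a running wheel. LD mice (n = 14) stayed on a light-dark cycle with 12 h of light, and ADV mice (n = 16) were on the same cycle advanced by 8 h every 4 days, the jet lag condition. Both groups had earlier been kept on the fixed cycle and then in constant darkness, were 14 weeks old when the schedules began and were 78 weeks old at sampling, when the ADV cycle was aligned with that of the LD mice. Each library came from the gastrocnemius, with the attached plantaris, of 1 mouse. Sampling was spread over the daytime, and its hour for each mouse was not used here. Between 18.9 M and 28.5 M read pairs per library lay on exons. Markers of muscle fibers were abundant in every library, with a summed level of 36596 to 45351 FPKM for 7 genes that include Acta1 and Ckm.

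HSP70 proteins are chaperones that bind exposed hydrophobic stretches of other proteins and release them in a cycle driven by ATP. J-domain proteins deliver clients and trigger ATP hydrolysis, and nucleotide exchange factors, among them the HSP110 relatives of HSP70, reopen the cycle. In unstressed cells HSF1 is held inactive. On heat, contraction or proteotoxic stress it forms trimers and binds heat shock elements, which are inverted repeats of the unit GAA, in front of inducible genes such as Hspa1a and Hspa1b.

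Hspa1a and Hspa1b, which encode the stress-inducible cytosolic HSP70, are neighbouring single-exon genes on chromosome 17 of GRCm39, the build of the tables. Hspa1a spans chr17:35188166-35191132 and Hspa1b spans chr17:35175412-35178214, both on the minus strand with 9951 bases between them. Hspa1l, a related gene best known from the testis, lies at chr17:35191679-35198261 on the plus strand and starts 546 bases from the start of Hspa1a. The other members lie apart from this cluster: Hspa2 at chr12:76450950-76453712, Hspa4 at chr11:53150641-53191284, Hspa4l at chr3:40699862-40750538, Hspa8 at chr9:40712280-40716496, Hsph1 at chr5:149537752-149559636 and Hsf1 at chr15:76361645-76385172.

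The 250 bases before the starts of Hspa1a and Hspa1b are shown because these genes differed most between the groups, and the same window of Hspa8 because its mRNA followed theirs across mice. The windows are given 5′ to 3′ on the strand of the gene, from GRCm39, with any GAANNTTC or TTCNNGAA (2 inverted GAA units) in capitals.
Hspa1a, chr17:35191133-35191382, minus strand: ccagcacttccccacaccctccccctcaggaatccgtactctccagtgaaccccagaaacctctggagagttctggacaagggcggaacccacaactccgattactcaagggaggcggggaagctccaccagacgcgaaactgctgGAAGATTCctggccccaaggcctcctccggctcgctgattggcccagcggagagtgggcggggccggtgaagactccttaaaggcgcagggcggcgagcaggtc
Hspa1b, chr17:35178215-35178464, minus strand: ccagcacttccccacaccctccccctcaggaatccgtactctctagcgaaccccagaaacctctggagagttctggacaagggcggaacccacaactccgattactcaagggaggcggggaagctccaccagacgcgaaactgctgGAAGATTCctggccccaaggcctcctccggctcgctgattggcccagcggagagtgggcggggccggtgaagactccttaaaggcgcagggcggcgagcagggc
Hspa8, chr9:40712030-40712279, plus strand: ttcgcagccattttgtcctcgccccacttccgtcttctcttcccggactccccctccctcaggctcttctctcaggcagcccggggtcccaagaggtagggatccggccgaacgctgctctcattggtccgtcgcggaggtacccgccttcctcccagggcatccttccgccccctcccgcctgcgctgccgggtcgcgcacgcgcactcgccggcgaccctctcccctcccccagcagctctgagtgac

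The Hspa1a and Hspa1b windows were 98.8% identical, with 3 of 250 bases differing and 201 bases in the longest identical run. In both, GAAGATTC began at position -104 from the start of the gene and ATTGG, the reverse complement of the CCAAT box, at -67. The Hspa8 window held no such pair of GAA units and had ATTGG at -128. The matches of Hsph1 and Hspa4l, members whose levels differed little between the groups, are shown for comparison as short stretches in the same way.
Hsph1, chr5:149559745-149559773, minus strand: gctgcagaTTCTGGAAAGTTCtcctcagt
Hsph1, chr5:149559819-149559842, minus strand: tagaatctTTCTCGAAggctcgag
Hspa4l, chr3:40699749-40699772, plus strand: ccagctctTTCTCGAAcctgccac

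The first Hsph1 stretch began its match at -129 and was the only one of the 10 windows to hold 3 units in alternating order, that is a pair with 1 more unit 2 bases further on. Hspa9 also held a pair, at -147, while the windows of Hspa1l, Hspa2, Hspa4, Hspa8 and Hsf1 held none. Pairs were thus found in 5 of the 10 members, in 10 of 45 pathway genes tested, and in 10.1% of the 12029 tested genes with a window of this length; 3 units were found in 0.407% of them. A match of letters is not a binding site, and a window without one says nothing of HSF1. In GENCODE vM39, annotated exons on the same strand covered all 250 bases of the Hspa2, Hspa9 and Hsph1 windows, and 247 of Hspa4. They covered 124 bases of Hspa4l, 87 of Hsf1, 15 of Hspa1l and 0 of Hspa1a, Hspa1b and Hspa8. A window before the deposited start can thus lie in annotated exons, and the windows of the members are not alike in this.

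Because the coding sequences of Hspa1a and Hspa1b are nearly alike, some reads can match both genes. Of the windows of 101 bases, the read length, along the Hspa1a transcript, 46.9% also occurred in Hspa1b, and 49.7% of those of Hspa1b occurred in Hspa1a. The authors removed alignments of mapping quality under 10. How many reads that match both genes were removed, and how any others were placed, was not tested. Reads removed in this way are missing from the sum of both genes too. The sum of both genes is therefore given beside each. Of the Hspa1l windows 3.69% occurred in Hspa1b, and of the Hspa8 windows 63.6% occurred elsewhere in the genome but in no other member, so levels of Hspa8, Hspa1a and Hspa1b rest on the reads that could be placed. Hspa2, Hspa4, Hspa4l, Hspa9 and Hsph1 had no such windows. For Hsf1, 17.2% of the windows along the annotated transcript of 5137 bases occurred elsewhere but in no other member. The deposited Hsf1 row covers 2059 bases of exon, and how many of those windows lie in it was not tested. Whether counting used the strand is not given in the sources used here. An antisense row inside Hspa1a held a mean of 0.55 reads and one overlapping Hspa1l a mean of 50.7 reads, against a mean of 799 reads for Hspa1l itself.

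The inducible Hspa1a and Hspa1b were low in LD mice and higher, but very unequal, in ADV mice. Hspa1a ranged from 0.745 FPKM through a median of 1.49 to 3.61 in the LD group and from 1.39 through 4.54 to 45.5 in the ADV group. Hspa1b ranged from 0.488 FPKM through a median of 1.06 to 3.18 in the LD group and from 1.09 through 3.44 to 48.8 in the ADV group. For each gene, and for their sum, 8 of the 16 ADV mice lay above the highest LD mouse and none lay below the lowest, so the groups overlapped. The group means were 1.65 ± 0.89 (SD) against 8.80 ± 11.2 FPKM for Hspa1a and 1.29 ± 0.85 against 8.21 ± 12.1 FPKM for Hspa1b.

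The log2 fold change (ADV over LD, edgeR) was 2.41 with a standard error (SE) of 0.45 for Hspa1a, 2.67 (SE 0.51) for Hspa1b and 2.53 (SE 0.47) for the sum. The ratio of the group medians was smaller, 3.04 for Hspa1a and 3.24 for Hspa1b against fitted folds of 5.31 and 6.35, since a few ADV mice carried much of the mean. The summed level reached 94.3 FPKM in ADV mouse 25 and 45.4 in ADV mouse 33, and the next 4 mice (24, 29, 26 and 21) lay between 17.4 and 19.6. At the other end, ADV mice 22, 30 and 27 had 2.48, 2.91 and 3.56 FPKM, inside the LD range of 1.26 to 6.79. Without ADV mouse 25 the log2 fold change was 1.98 for the sum, 1.91 for Hspa1a and 2.06 for Hspa1b, in each case the lowest of the 30 values obtained by leaving out 1 library.

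The highest ADV mouse was 37.97 times the lowest in the sum, compared with 5.40 times among LD mice. The coefficient of variation of Hspa1a was 128% in the ADV group and 53.9% in the LD group, and that of Hspa1b was 147% and 66.0%. Both genes moved together from mouse to mouse, with Hspa1a above Hspa1b in 28 of 30 libraries. Hspa1a made up 57.6 ± 4.93% of the summed level in LD mice and 54.6 ± 3.31% in ADV mice, a share in which the part of reads matching both genes was not tested. Read counts behind Hspa1a ran from 47 to 3549 per library and behind Hspa1b from 29 to 3596, so counting error was largest in the lowest LD mice.

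**Figure D1:**
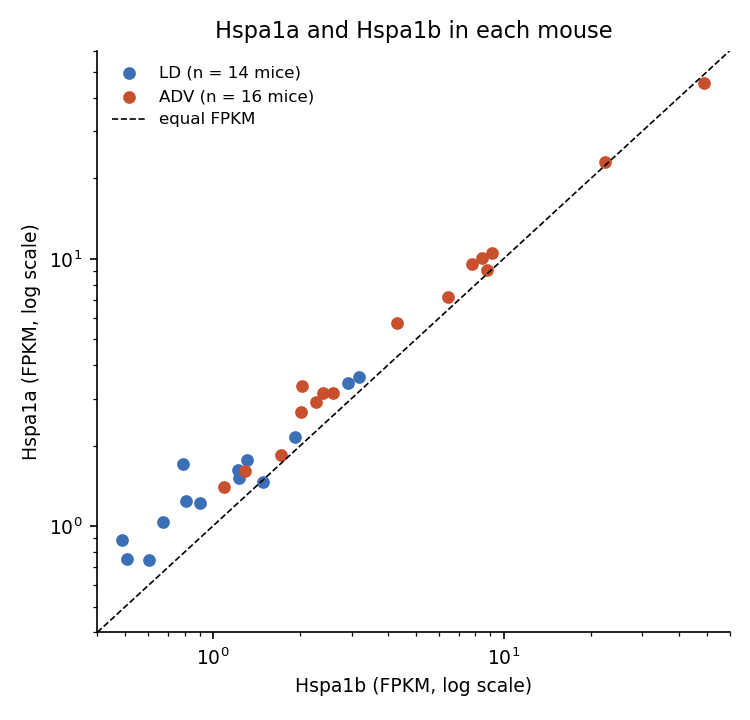
Hspa1a against Hspa1b in FPKM on log scales, 1 point per mouse (14 LD, 16 ADV), with a dashed line at equal FPKM. The points follow the line over the whole range, most of them just above it, and 8 ADV mice lie beyond the highest LD mouse.

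Hspa8, the constitutive cytosolic HSP70 (Hsc70), was the most abundant member in every mouse. It ranged from 285 FPKM through a median of 337 to 404 in LD mice and from 306 through 409 to 543 in ADV mice. The ADV group was shifted upward, with 9 of 16 mice above the highest LD mouse and 15 of 16 above the LD median. The means were 341 ± 39.3 and 421 ± 67.1 FPKM, a log2 fold change of 0.29 (SE 0.07) or 1.22-fold, under the limit of 1.3-fold used for calling.

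Hspa9, or mortalin, is the HSP70 of the mitochondrial matrix, encoded on chromosome 18. It ranged from 111 FPKM through a median of 151 to 174 in LD mice and from 135 through 151 to 192 in ADV mice. The medians coincided and the groups overlapped, with 1 ADV mouse above the highest LD mouse. The LD group reached further down. LD mice 23, 28, 30, 33 and 35, at 111 to 122 FPKM, lay below the lowest ADV mouse at 135 FPKM. The log2 fold change was 0.09 (SE 0.06).

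Hspa1l ranged from 9.36 FPKM through a median of 12.1 to 16.0 in LD mice and from 10.4 through 14.04 to 18.9 in ADV mice, with 5 ADV mice above the highest LD mouse and a log2 fold change of 0.18 (SE 0.08). Hspa2, a relative required for spermatogenesis, was scarce, at 0.885 to 1.97 FPKM (median 1.52) in the LD group, while ADV mice had 1.04 to 3.46 FPKM (median 1.73). Its log2 fold change was 0.21 (SE 0.13). The value depended in part on ADV mouse 24, the highest in Hspa2, Hspa1l and Hspa4, since without it the log2 fold change of Hspa2 was 0.12.

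The HSP110 relatives, which act as nucleotide exchange factors for HSP70, had log2 fold changes between -0.07 and 0.05. Hspa4 was the steadiest member, at 21.7 to 26.8 FPKM (median 24.2) under LD and 22.1 to 27.4 FPKM (median 24.96) under ADV, with a log2 fold change of 0.05 (SE 0.03). Hspa4l ranged from 0.513 to 1.24 FPKM (median 0.896) in LD mice and from 0.571 to 1.56 FPKM (median 0.852) in ADV mice. It was the only member with a negative log2 fold change, -0.07 (SE 0.12), a sign that changed to 0.04 with the exon share as a covariate and to 0.06 with the GC content trend removed.

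Hsph1, the HSP110 gene known to be induced with Hspa1a on heat shock, had nearly the same level in both groups. It ranged from 19.4 FPKM through a median of 23.7 to 28.3 in LD mice and from 19.6 through 23.7 to 35.4 in ADV mice, and its log2 fold change was 0.04 (SE 0.07). The 2 mice above the LD range were ADV mouse 28 (35.4 FPKM) and ADV mouse 33 (30.4 FPKM). Without mouse 28 the log2 fold change was -0.0047. ADV mouse 25, with the highest Hspa1a and Hspa1b, had 23.4 FPKM of Hsph1.

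Hsf1, which encodes the transcription factor itself, ranged from 15.5 FPKM through a median of 18.4 to 20.99 in LD mice and from 17.5 through 19.2 to 23.7 in ADV mice. The means were 18.6 ± 1.28 and 19.8 ± 1.76 FPKM, a log2 fold change of 0.08 (SE 0.04), and 2 ADV mice (28 and 34) lay above the highest LD mouse. The mRNA level carries no information on the trimeric or phosphorylated state of the protein.

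**Figure D2:**
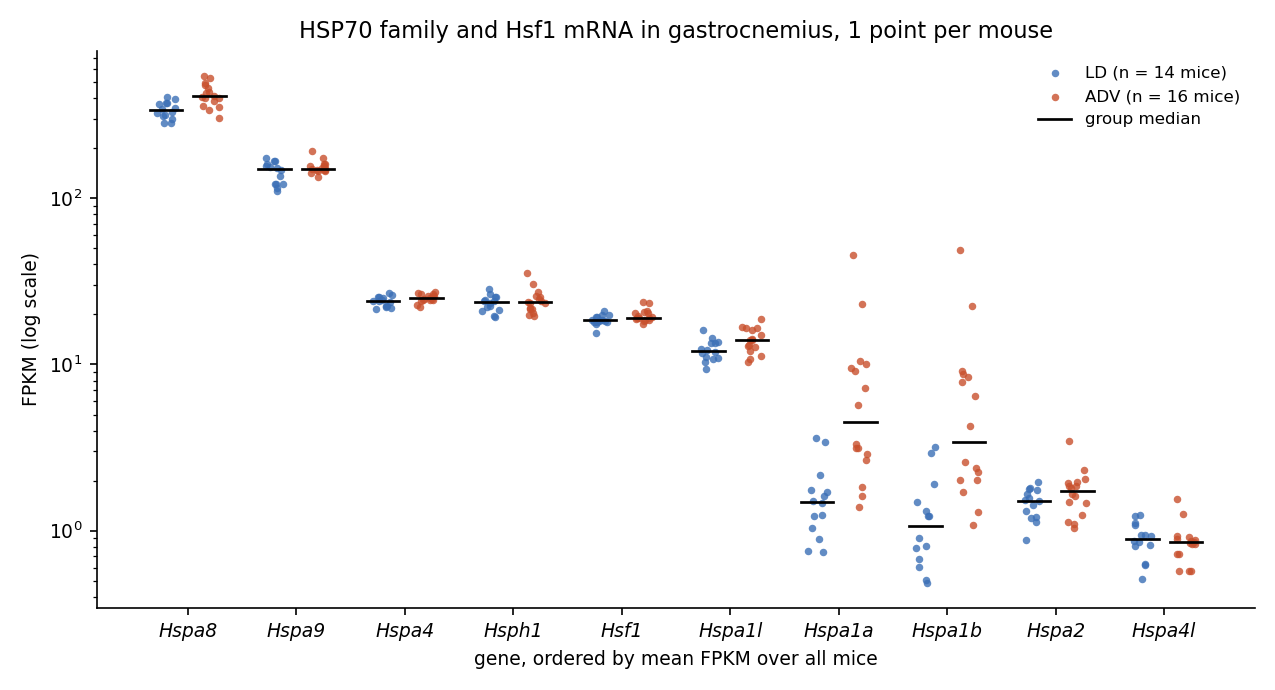
Level of each member in FPKM (log scale), 1 point per mouse, LD (n = 14) and ADV (n = 16), with the group median as a bar and genes ordered by their mean over all mice. Hspa1a and Hspa1b spread widely in ADV mice, while Hspa4, Hsph1 and Hsf1 lie in narrow, overlapping bands.

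In the edgeR quasi-likelihood test, 2 of the 10 members, Hspa1a and Hspa1b, passed the thresholds of an FDR under 0.05 (Benjamini-Hochberg) and a fold change over 1.3, both higher in ADV mice. Of all genes tested 2.09% passed, 1.45% higher and 0.64% lower. Without the fold limit 3 members passed, Hspa8 being the third, against 10.9% of all genes, 5.74% higher and 5.12% lower. Since this contrast chose the set, nothing is read from these counts. Of the 10 members 9 had a positive log2 fold change, compared with 51.0% of all genes tested. The median was 0.13, compared with 0.0035 over all genes tested. Among inducible members (Hspa1a, Hspa1b, Hsph1) the log2 fold change ran from 0.04 to 2.67, and among constitutive ones (Hspa8, Hspa9, Hspa4, Hspa2, Hspa1l, Hspa4l) from -0.07 to 0.29, so Hsph1 lay inside the constitutive range.

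No member passed both thresholds in edgeR with a clock gene score of each library as a covariate (fitted log2 fold change of the sum 2.55), nor with the share of the library on exons as one (2.05); 3 of the 10 had an unadjusted p under 0.05 in either fit, against 16.2% of all genes with the clock score and 14.9% with the exon share, and 4 had one without a covariate, against 30.05% of all genes. DESeq2 without a covariate called 2. The clock score (mean standardized log2 level of Dbp, Ciart, Nr1d1, Nr1d2, Per3 and Tef, with Bmal1, Npas2 and Clock counted negatively) was 0.53 ± 0.65 in LD and -0.46 ± 0.41 in ADV mice, and the exon share 91.2 ± 0.12% and 91.5 ± 0.37%, so both moved with the group.

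By level, the members fell in the order Hspa8, Hspa9, Hspa4, Hsph1, Hsf1, Hspa1l, Hspa1a, Hspa1b, Hspa2 and Hspa4l, with means over all mice of 383, 149, 24.6, 23.9, 19.2, 13.2, 5.46, 4.98, 1.62 and 0.881 FPKM. Most steps held in at least 28 of 30 libraries. The exceptions were Hspa4 above Hsph1, in 22 libraries, and Hspa1b above Hspa2, in 4 of 14 LD but 13 of 16 ADV libraries. By FPKM, Hspa1b in LD muscle thus lay mostly below the scarce Hspa2, and in ADV mice 25 and 33 both inducible genes lay above Hspa1l. FPKM divides by the full exon length, while 49.7% of the Hspa1b windows, 63.6% of those of Hspa8 and 0% of those of Hspa2 also occurred elsewhere. What reads that could not be placed would change in this order, and in the shares and ratios between members, was not tested.

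Summed over the 9 HSP70 and HSP110 genes, the level was 549 ± 58.2 FPKM in LD and 658 ± 89.9 FPKM in ADV mice. Hspa8 accounted for 73.8% of the difference between these means (80.1 of 109 FPKM), Hspa1a and Hspa1b together for 12.95% (14.1 FPKM) and Hspa9 for 9.58%. Hspa1a and Hspa1b made up 0.526 ± 0.281% of the summed level in LD mice and 2.31 ± 2.72% in ADV mice, with 11.2% in the highest ADV mouse. For 1000 FPKM of Hspa8 there were 8.42 ± 4.35 FPKM of both inducible genes in LD mice, compared with 35.99 ± 42.1 FPKM in the ADV group, and Hspa8 remained the larger by far in every mouse. In such bulk samples, fewer cells of a type and less RNA per cell cannot be told apart.

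Some mice stood at the edge for several members at once. LD mouse 33 was the lowest LD mouse in 6 members (Hspa1a, Hspa1l, Hspa4, Hspa4l, Hspa8, Hsph1), and LD mouse 31 the highest in 4 (Hspa1l, Hspa4, Hspa8, Hsph1). In the ADV group, mouse 25 was highest in Hspa1a, Hspa1b and Hspa8, mouse 24 in Hspa1l, Hspa2 and Hspa4, and mouse 28 in Hspa4l, Hsph1 and Hsf1. The ADV maxima of the HSP110 genes and Hsf1 therefore fell in another mouse than those of Hspa1a.

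The rest of the HSP70 pathway was looked at in 46 genes outside the set, of which 45 were tested and Hsf5 was too low. These lists were chosen with earlier results of these data known. Their counts and the FDRs of their genes are therefore a description and are not read as support for a rise of the pathway. In ADV mice 8 of the 45 rose and none fell by edgeR (DESeq2 also called 8, 0 of them lower), compared with 1.45% and 0.64% of all genes. Of the 45, 41 had a positive log2 fold change, compared with 51.0% of all genes tested, and the median was 0.11, compared with 0.0035. None was called with the clock score or with the exon share as a covariate, when 13 and 10 of the 45 had an unadjusted p under 0.05, compared with 22 without a covariate. The shares of all genes at that p were 16.2%, 14.9% and 30.05%. Without ADV mouse 25, and likewise without LD mouse 28, 5 of the 45 were called.

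Among 9 J-domain cochaperones, 3 rose and 6 were not called. Dnajb1, the main HSP40 partner of inducible HSP70, rose from 2.05 ± 0.58 to 4.40 ± 4.96 FPKM (log2 fold change 1.11, edgeR FDR 0.0254). Its medians were 1.95 and 2.57 FPKM and its highest ADV value was 22.1, so a few mice again carried the mean. Dnajb4, a related HSP40, rose from 21.04 ± 5.07 to 32.5 ± 10.2 FPKM (log2 fold change 0.61, FDR 0.0067). Dnaja4 rose from 34.1 ± 7.59 to 48.1 ± 12.6 FPKM (0.48, FDR 0.0132), while Dnajb5, the most abundant of the list, was at 62.0 ± 7.34 and 64.5 ± 10.1 FPKM.

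Of 5 nucleotide exchange factors and BAG proteins, Bag3, the cochaperone of chaperone-assisted autophagy at the Z-disc, was called. It rose from 58.0 ± 6.08 to 76.4 ± 14.1 FPKM (log2 fold change 0.38, FDR 0.0034), at the limit of 1.3-fold. It was called in 16 of the 30 fits that left out 1 library and not called in the other 14, those without ADV mouse 24, 25, 28, 29, 32, 33, 35 or 36 or without LD mouse 23, 26, 27, 28, 30 or 34. Bag1, the most abundant, had 91.5 ± 6.75 and 97.1 ± 8.89 FPKM. Of 8 genes of HSP90 and its cochaperones, Hsp90aa1, the inducible cytosolic HSP90, rose from 14.1 ± 3.40 to 19.8 ± 6.63 FPKM (0.47, FDR 0.0286), a call lost without ADV mouse 25 or LD mouse 28, whereas the constitutive Hsp90ab1 was at 447 ± 20.8 and 470 ± 26.96 FPKM and was not called.

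Small heat shock proteins hold unfolding proteins without ATP until HSP70 takes them up, and are abundant in muscle. Of 7, 3 rose: Hspb1 (HSP27), Cryab (alpha-B crystallin), a chaperone of desmin, and Hspb7, a binder of filamin C. Hspb1 went from 95.5 ± 17.0 to 162 ± 56.5 FPKM (log2 fold change 0.76, FDR 0.00158), and 12 of 16 ADV mice lay above the highest LD mouse. Cryab went from 545 ± 146 to 772 ± 171 FPKM (0.49, FDR 0.0115) and Hspb7 from 209 ± 71.8 to 302 ± 81.5 FPKM (0.51, FDR 0.0348). Hspb7 was not called in 8 of the 30 fits that left out 1 library (ADV mouse 24, 25, 27 or 32, LD mouse 27, 28, 30 or 33), whereas Hspb1 and Cryab were called in all 30. All 7 had a positive log2 fold change, compared with 51.0% of all genes tested, with a median of 0.31. Without the fold limit 5 of them had an FDR under 0.05, all higher in ADV mice, compared with 5.74% of all genes.

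No gene was called in the 4 remaining lists, by edgeR or by DESeq2. They were the 4 HSP70 adaptors and ubiquitin genes (1 with an unadjusted p under 0.05; Ubb at 212 ± 15.1 and 233 ± 21.7 FPKM), the 2 chaperonin genes of the mitochondrion (1; Hspd1 at 66.7 ± 8.68 and 70.3 ± 5.99), the 6 HSP70 relatives outside the set (2; Hspa5, or BiP of the endoplasmic reticulum, at 51.9 ± 5.23 and 56.8 ± 7.09) and the 4 tested other heat shock factors and regulators (1; Hsbp1 at 53.2 ± 2.26 and 56.2 ± 5.15). Hspa13 was the one pathway gene with a lower level and an FDR under 0.05 (2.40 ± 0.28 and 2.03 ± 0.30 FPKM, FDR 0.0211), inside the fold limit.

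**Figure D3:**
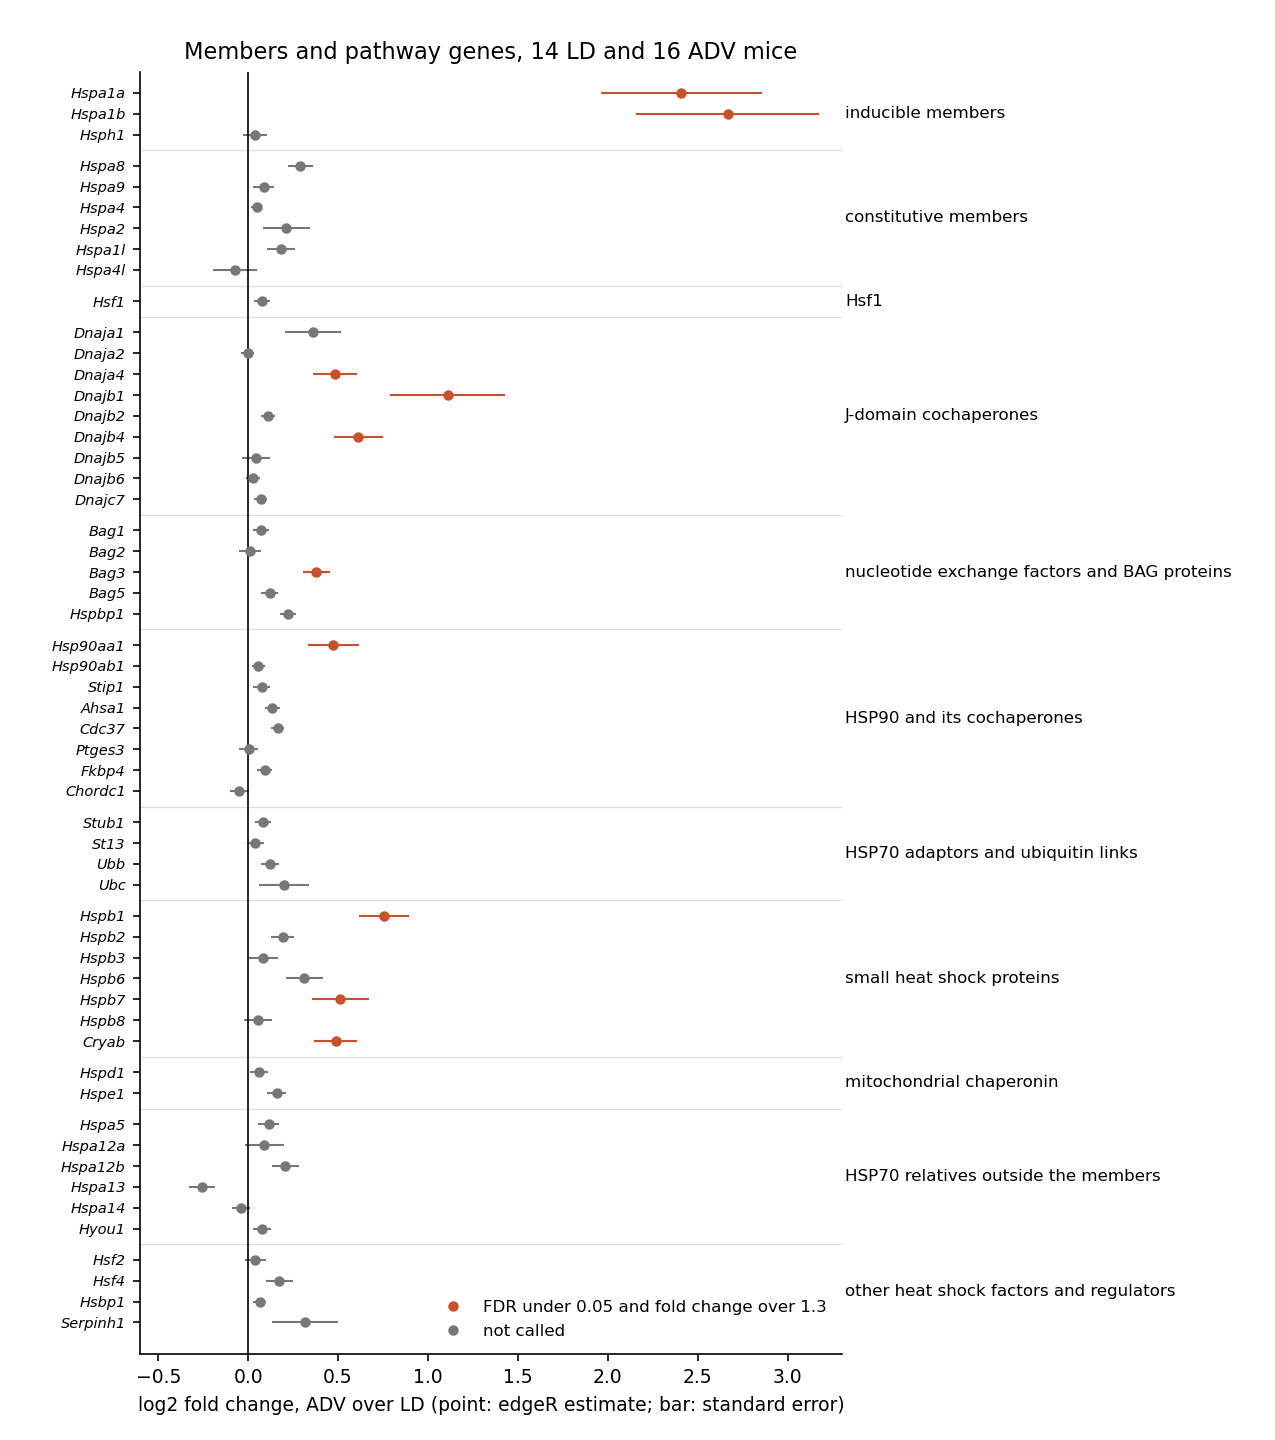
Log2 fold change (ADV over LD) with its standard error for the 10 members and 45 pathway genes by list, in orange where the FDR was under 0.05 and the fold change over 1.3 (edgeR, 14 LD and 16 ADV mice). Hspa1a and Hspa1b lie far to the right, the 8 called pathway genes between 0.38 and 1.11, and Hsph1 and Hsf1 near 0.

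Pairs of GAA units lay in the 250-base windows of 2 of the 8 called pathway genes (Dnaja4 and Hspb1) and of 8 of the 37 others, a difference that was not tested. Dnajb6, Hspd1 and Hspe1, which hold 3 alternating units, were not called. The matches of Hspd1 read the same as those of Hspe1 on the opposite strand. The same stretch may thus be counted for both genes, here and among the 10 of 45 pathway genes, which was not tested.

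Whether other members followed Hspa1a and Hspa1b from mouse to mouse was asked within each group, where the difference between group means does not enter. The sum and the lists were nevertheless chosen with earlier results of these data known. ADV mice 25 and 33, the highest in the sum, add to the difference between schedules and to the spread among ADV mice. The p-values may thus not be independent of that choice. The summed level was correlated with 8 members and 14 partner genes on log2(FPKM + 0.1), which made 44 pairs over both groups, with two-sided permutation p-values (100000 resamples) and Benjamini-Hochberg adjustment over the 44. All values of a mouse come from 1 library. The share of all genes tested that would pass in the same way was not computed. Counts of correlated genes are therefore given without such a share and are not read as more than it. Whether mice formed separate clusters in the summed level was not tested. Its largest gap was 0.63 of a range of 2.34 on the log2 scale in LD mice and 1.21 of 5.19 in ADV mice. The ADV gap lay between mouse 24 (19.6 FPKM) and mouse 33 (45.4 FPKM).

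Hspa8 followed the inducible genes in both groups. Among LD mice Spearman's rho was 0.72 (permutation p = 0.00467, adjusted p = 0.0158) and Pearson's r 0.64 (adjusted p = 0.0393). Among ADV mice rho was 0.84 (permutation p = 0.00014, adjusted p = 0.00242) and r 0.81 (adjusted p = 0.0011). Without the 2 mice farthest from the median of the sum (LD mice 22 and 26, ADV mice 25 and 33), r was 0.64 and 0.66, and rho 0.66 (permutation adjusted p = 0.0742) and 0.75 (adjusted p = 0.0249). Of the 8 ADV mice above every LD mouse in the sum, 7 were also above every LD mouse in Hspa8. Among all ADV mice, 9 were above every LD mouse in Hspa8. Unlike the correlations, these counts use the difference between schedules and are given as a description only.

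Hspa1l was correlated with the sum among ADV mice (rho 0.65, permutation p = 0.00859, adjusted p = 0.0252; r 0.64, adjusted p = 0.0313). The call was lost without the 2 farthest mice, where rho was 0.49 (permutation adjusted p = 0.198) and r 0.56. Among LD mice rho was 0.19 (permutation adjusted p = 0.657). The difference between the groups was not tested, and 3.69% of Hspa1l read windows are shared with Hspa1b.

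The other 6 members were not called in either group. For Hsph1 rho was 0.33 in LD (permutation adjusted p = 0.371) and -0.0059 in ADV mice (adjusted p = 0.987). For Hsf1 rho was 0.20 (permutation adjusted p = 0.644) and -0.02 (adjusted p = 0.987). For Hspa4 rho was 0.12 and 0.49, for Hspa9 0.06 and 0.20, for Hspa4l 0.29 and 0.01 and for Hspa2 -0.47 and 0.12, with permutation adjusted p-values from 0.129 to 0.987.

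**Figure D4:**
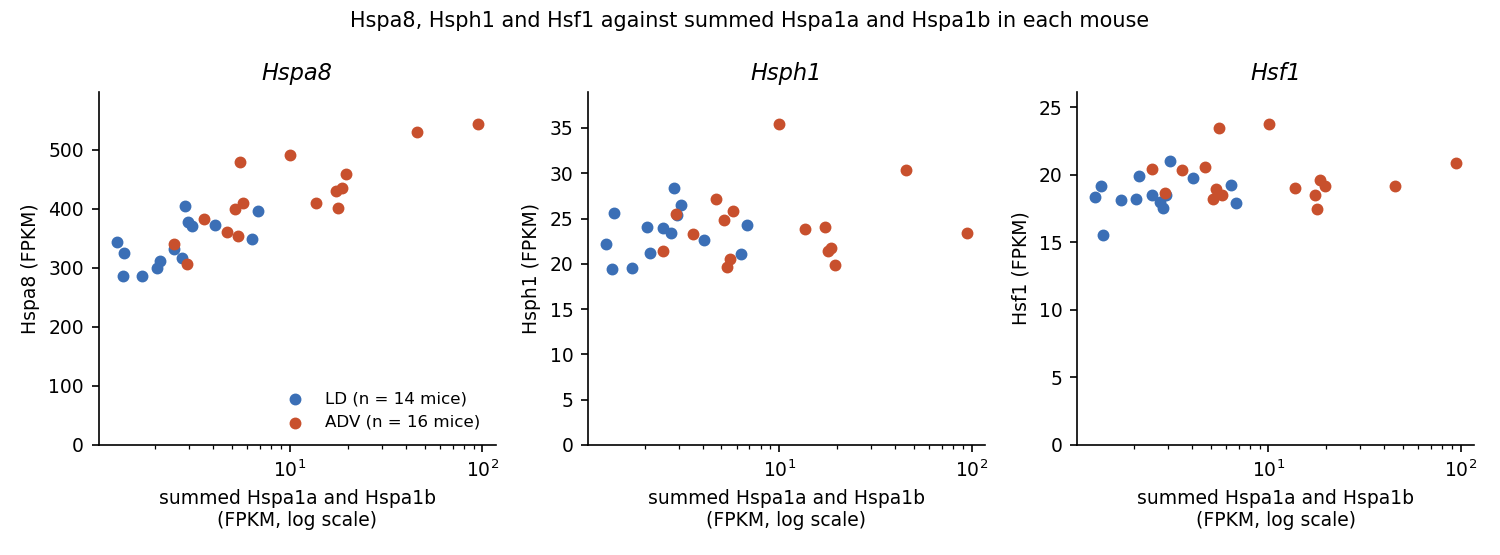
Level of Hspa8, Hsph1 and Hsf1 (FPKM, axis from 0) against the summed Hspa1a and Hspa1b (FPKM, log scale), 1 point per mouse (14 LD, 16 ADV). Hspa8 climbs with the sum within each group, while for Hsph1 and Hsf1 rho lay between -0.02 and 0.33.

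Among the cochaperones, Dnajb1, Hspb1 and Hsp90aa1 were correlated with the sum in both groups. The Spearman correlation was 0.76 and 0.86 for Dnajb1 (LD and ADV, permutation adjusted p = 0.00944 and 0.0022; r 0.73 and 0.92), 0.80 and 0.80 for Hsp90aa1 (0.00469 and 0.00242; r 0.83 and 0.83) and 0.65 and 0.81 for Hspb1 (0.0399 and 0.00264; r 0.49 and 0.84, of which the first did not pass at an adjusted p = 0.175). Without the 2 farthest mice each kept an adjusted p under 0.05 except Hspb1 among LD mice (rho 0.55, permutation adjusted p = 0.19). Bag3 was not called in either group (rho 0.19 and 0.54, permutation adjusted p = 0.657 and 0.0831).

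Of the immediate early and stress genes, Atf3 was correlated with the sum in both groups (rho 0.80 and 0.84, permutation adjusted p = 0.00469 and 0.00242; r 0.81 and 0.89). Among LD mice this was lost without the 2 farthest (rho 0.69, permutation adjusted p = 0.0688). Fos was called among ADV mice (rho 0.77, permutation adjusted p = 0.00469; r 0.77) and had rho 0.47 among LD mice (adjusted p = 0.172). Egr1 had rho -0.05 and 0.54 (permutation adjusted p = 0.966 and 0.0831), though its Pearson r among ADV mice passed (0.70, adjusted p = 0.0118). All 3 also rose in ADV mice, Atf3 from 5.49 ± 4.598 to 29.7 ± 32.1 FPKM (edgeR FDR 0.0034), Fos from 2.24 ± 1.17 to 9.03 ± 11.6 FPKM (FDR 0.0069) and Egr1 from 1.33 ± 0.33 to 3.64 ± 3.80 FPKM (FDR 0.0092).

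Cirbp and Rbm3 encode RNA-binding proteins that are induced by mild cold, where HSF1 targets are induced by heat. Cirbp was inversely correlated with the sum among LD mice (rho -0.76, permutation adjusted p = 0.00944; r -0.65), also without the 2 farthest (rho -0.83, permutation adjusted p = 0.0249), and had rho -0.45 among ADV mice (adjusted p = 0.172). For Rbm3 rho was -0.41 and -0.34 (permutation adjusted p = 0.255 and 0.309). Neither differed between the groups past the threshold (edgeR FDR 0.173 and 0.836).

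Of 5 clock genes, Dbp and Bmal1 were called among LD mice and Per2 among ADV mice. Among LD mice Dbp was inversely (rho -0.75, permutation adjusted p = 0.0113; r -0.64) and Bmal1 directly correlated (rho 0.69, adjusted p = 0.0252; r 0.59, adjusted p = 0.0709), and neither passed without the 2 farthest mice (rho -0.66 and 0.56, permutation adjusted p = 0.0731 and 0.184). For Per2 among ADV mice the relation was direct (rho 0.78, permutation adjusted p = 0.00469; r 0.74), and held without the 2 farthest (rho 0.71, adjusted p = 0.0311), and Per2 had rho -0.36 among LD mice (adjusted p = 0.316). Dbp and Bmal1 had rho -0.03 and -0.48 among ADV mice (permutation adjusted p = 0.975 and 0.133), and neither Nr1d1 (rho -0.40 and -0.41) nor Per1 (rho -0.41 and 0.06) was called in either group. No difference in rho between the groups was tested.

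The clock score itself had rho -0.68 with the sum among LD mice (permutation p = 0.00857, adjusted over 4 pairs of library measures p = 0.0343; r -0.65, without the 2 farthest -0.60) and 0.45 among ADV mice (permutation adjusted p = 0.162; r 0.39). The exon share had rho 0.18 and -0.04 (permutation adjusted p = 0.725 and 0.883; r 0.29 and 0.06). The part of the hour of sampling in these relations was not tested.

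**Figure D5:**
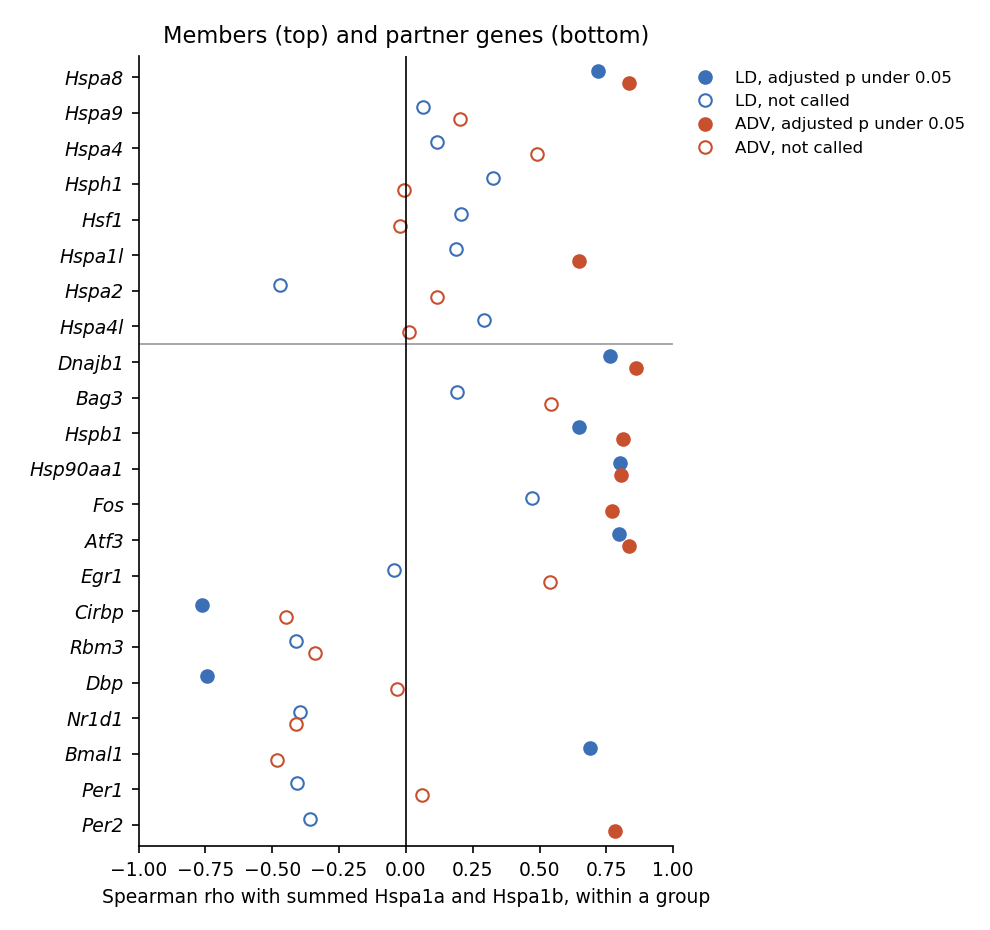
Spearman's rho with the summed Hspa1a and Hspa1b within LD mice (n = 14) and ADV mice (n = 16) for 8 members (top) and 14 partner genes (bottom), filled where the adjusted permutation p was under 0.05. Hspa8, Dnajb1, Hspb1, Hsp90aa1 and Atf3 are filled on the positive side in both groups, while Hsph1 and Hsf1 are open in both.

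Over the 12028 other genes tested, the patterns most like that of the sum, by the mean of the 2 within-group values of Spearman's rho, were those of Otud1, a deubiquitinase (mean rho 0.87), Slc38a2, an amino acid transporter (0.87), Adcy4, an adenylyl cyclase (0.87), Tubb2a, a beta-tubulin (0.86), and Tpm4, a tropomyosin (0.86). Otud1 averaged 5.84 ± 4.69 FPKM under LD and 23.8 ± 30.5 FPKM under ADV and Slc38a2 at 31.5 ± 10.6 and 50.2 ± 21.2 FPKM. Dnajb4 had rank 8 (0.85), Atf3 rank 17 (0.82), Dnajb1 rank 20 (0.81), Hsp90aa1 rank 26 (0.80) and Hspa8 rank 47 (0.78). The next member was Hspa1l at rank 1011, and Hsph1 and Hsf1 ranked 3512 and 4564. These ranks describe the 30 libraries and carry no p-value.

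Markers of other cell types were given beside these values because some moved with the groups. Summed over the 5 genes of each list, adipocyte markers ranged from 28.3 to 169 FPKM in LD and 19.2 to 286 FPKM in ADV mice, Schwann cell markers from 15.7 to 33.2 and 17.2 to 56.3 FPKM, and endothelial markers from 48.1 to 68.4 and 55.5 to 72.7 FPKM. All 5 adipocyte and all 5 Schwann cell genes had positive log2 fold changes (medians 0.79 and 0.45), compared with 51.0% of all genes tested. None was called by edgeR, with 3 of 5 at an unadjusted p under 0.05 in each list, against 30.05% of all genes. DESeq2 called 1 adipocyte and 3 Schwann cell genes. No gene was called by either tool in the lists of muscle fibers (2 of 7 with an unadjusted p under 0.05), endothelium (2 of 5, both also with an FDR under 0.05), fibroblasts (2 of 4, 1 of them with an FDR under 0.05) and leukocytes (0 of 3 tested; Cd3e and Cd79a were too low). The part of these cells in the levels of the HSP70 genes was not tested.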

How the data were processed

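RNA from the muscle of 14 LD and 16 ADV mice was sequenced as stranded poly(A) libraries in paired reads of 101 bases. The authors trimmed the reads with Trimmomatic, aligned them with STAR, discarded alignments of mapping quality under 10 with SAMtools and quantified exons with HOMER. The submitters' processing notes name STAR 2.7.10a, HOMER 4.11, bcl2fastq and the build GRCm39 (mm39). The deposited files were 2 tables of 57186 rows: estimated counts per row, of which 14.8% were not whole because single mates count 0.5, and FPKM values, which the authors derived from the same counts, exon length and library total. FPKM recomputed from the counts differed from the deposited FPKM by at most 5e-04.

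Counts were rounded to whole numbers, and the longest row with a mean over 20 reads was kept for the 232 symbols on more than 1 row. Genes with a mean over 20 reads and over 0.5 FPKM (12030) were tested with edgeR 4.0.16 in R 4.3.3 (TMM normalization, quasi-likelihood test, 2 groups, no covariate), and called at an FDR under 0.05 with a fold change over 1.3. Levels are FPKM as deposited, and a fold change is ADV over LD. The read pairs on exons (18.9 M to 28.5 M per library) set the precision of the low genes. Alternatives used DESeq2 1.42.0 and limma 3.58.1 on log2(FPKM + 0.1) or log2(FPKM + 1). On simulated counts for 12030 genes with 200 changed by 1 on the log2 scale, 203 were called, 198 of them changed, and none was called with no gene changed.

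The members and lists were chosen with earlier results of these data known. The genes named are the members, of the pathway genes called up to 5 with the largest rise and the largest fall, the most abundant gene of each list, 14 partner genes and the 5 genes whose pattern was most like that of the sum. Dnaja4, Dnajb6, Hspa13 and Hspe1 fall outside this rule and were named after their values were seen. Correlations within groups used scipy 1.17.1. Promoter windows and read-length windows were read from GRCm39 with GENCODE vM39.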

Additional observations from a re-analysis of the deposited data

How the results depend on the processing

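Hspa1a and Hspa1b were the members called under each alternative with another normalization, filter, tool or 1 library left out, and Hspa8 joined them without the fold limit (3 members). No member was called with the clock score or with the exon share as a covariate (0 each), where the log2 fold change of the sum was 2.55 and 2.05; it ranged from 1.58 to 2.55 over all alternatives and from 1.98 to 2.68 when 1 library was left out. Of 45 pathway genes, 15 were called without the fold limit, 4 with a replicate block of the label number, 3 on the same libraries without the block (an alternative added after seeing the data), 0 with either covariate, and 5 to 8 when 1 library was left out (5 without ADV mouse 25 or LD mouse 28; Bag3 and Hspb7 were lost most often). Deviations of same-numbered LD and ADV mice had a median correlation of 0.01 (14 pairs, -0.26 to 0.43, 6 over 0.1). Of these LD mice, 3 were closest to the ADV mouse of their own number. The block gave a log2 fold change of the sum of 1.58 compared with 1.92 without it on these 28 libraries. Hspa4l changed sign with the exon share as a covariate (0.044) and with the GC content trend removed (0.062, also added after seeing the data), and Hsph1 without ADV mouse 28 (range over the libraries left out -0.0047 to 0.059). Without the 2 mice farthest from the median of the sum, 0 members and 3 partner genes were correlated with it among LD mice, and 1 member and 6 partner genes among ADV mice. The share of all genes that would pass within a group was not computed, so nothing is read from these counts. Over all genes 251 were called, compared with 1306 without the fold limit, 136 with the block, 165 with the GC content trend removed, 124 by limma on log2(FPKM + 1), 151 on the shared label numbers, 9 with the clock score and 25 with the exon share. The causes were not tested. Hspa1b, Hspa2 and Hspa1a had the fewest reads in LD mice and so the largest relative counting error there.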
